A study of Mus musculus with 6 samples.

Results

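Coenzyme Q (ubiquinone) is the lipid that carries electrons between the dehydrogenases of the inner mitochondrial membrane and complex III. The 10 genes described here, Pdss1, Pdss2, Coq2, Coq3, Coq4, Coq5, Coq6, Coq7, Coq9 and Coq10a, encode proteins that make this lipid or handle it after it is made. They were chosen by name, as the rows of the count files that carry these symbols, and all 10 were found among 23282 rows and kept among the 12995 that were tested. The data are 3′ RNA-seq (QuantSeq) read counts from brown adipose tissue (BAT) of 3 wild-type and 3 Letmd1 KO mice. All 6 were males of the C57BL/6N strain at 5 weeks of age, and no treatment is given for either group. According to the study's methods, the KO mice were homozygous for a knockout-first allele, in which a cassette with lacZ and a neomycin resistance gene sits in an intron of Letmd1. That allele was carried in every cell of the body and came from a targeted embryonic stem cell clone, so the comparison is not limited to brown adipocytes. Letmd1 encodes a mitochondrial protein, and the comparison asks which transcripts differ in BAT without it.

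The head group of coenzyme Q is built from an aromatic ring, 4-hydroxybenzoate, and its tail from isoprene units supplied by the mevalonate pathway. PDSS1 and PDSS2 together assemble the tail, COQ2 joins it to the ring, and COQ3, COQ5, COQ6 and COQ7 then methylate or hydroxylate the ring in a complex on the matrix face of the inner membrane, with COQ4 and COQ9 as further members. BAT burns fatty acids and glycerol 3-phosphate at high rates, and the electrons from both enter the respiratory chain through coenzyme Q.

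Libraries held 6669577 to 14574273 counts, with both extremes in the KO group. Values below are CPM, in which counts are brought to the same library size with the TMM factors of edgeR, and QuantSeq counts do not grow with gene length, so that levels of different genes can be set side by side. At 3 counts, the upper limit where a gene has none, the floor lay between 0.176 and 0.397 CPM and covers counting error only. The counts of Letmd1 were 5658, 6490 and 5266 in wild-type BAT against 0, 0 and 1 in KO BAT, which matched the labels. Ucp1, the uncoupling protein that defines brown adipocytes, was at 5841 to 6874 CPM in the wild-type mice and at no more than 476 CPM in the KO mice. A list of 15 skeletal muscle markers stood out in wild type 2 (summed level 540 CPM against 89.2 and 103 in the other wild-type mice) and in KO 3 (1409 CPM against 497 and 386), so counts of genes are also given without these mice. The mean log2 level of these markers in wild type 2 (4.45) was near that in KO 1 (4.43) and KO 2 (4.07), so leaving out wild type 2 and KO 3 does not even out muscle between the genotypes: 14 of the 15 markers were then higher in KO BAT, with a median log2 fold change of 5.94.

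The transcripts of coenzyme Q synthesis were unequally affected. Coq10a, Coq6, Coq5, Coq9, Coq7 and Coq4 were lower in Letmd1 KO BAT, at between 32.4% and 63.3% of the wild-type level, while Pdss1, Pdss2, Coq2 and Coq3 did not pass the test, and none of the 10 was higher. Genes were called at an adjusted p under 0.05 (quasi-likelihood test of edgeR, Benjamini-Hochberg adjustment over all 12995 genes), which made 22.3% of all genes lower and 23.7% higher. The summed level of the 10 genes was 1139, 1143 and 1150 CPM in the wild-type mice, and 580, 510 and 653 CPM in the KO mice. With the TMM factors the sum in KO BAT was 50.8% of that in wild-type BAT, and it was not computed with other scalings. Coq5, Coq7 and Coq9 held 69.7% of it in wild-type BAT, so the sum mostly describes these genes. The median log2 fold change of the 10 genes was -0.81, where that of all genes tested was 0.03 and the middle part of all genes, between the 25th and 75th percentiles, ran from -0.44 to 0.58.

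**Figure D1:**
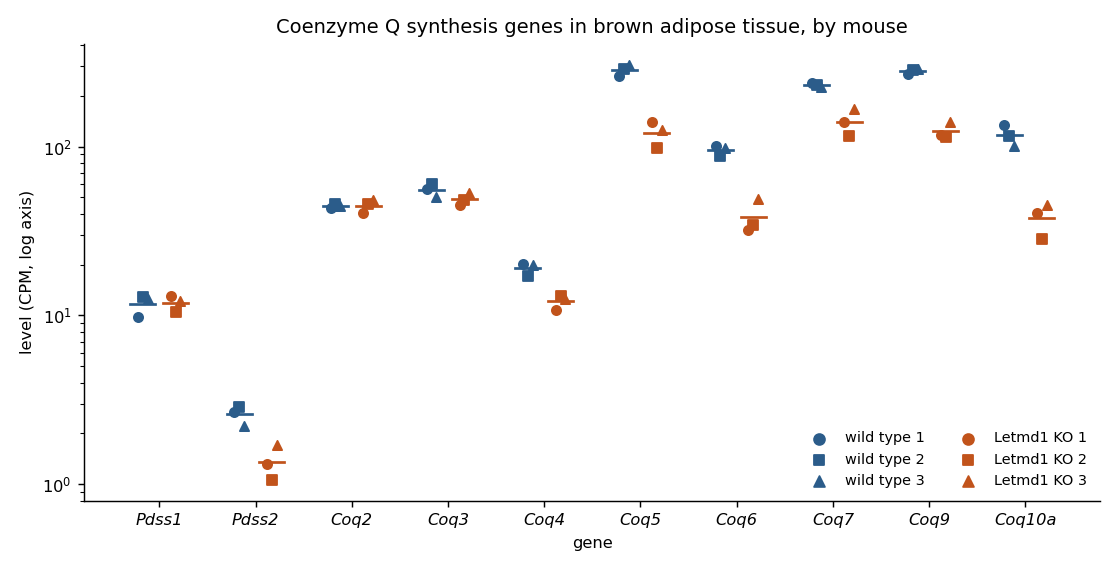
Level of each coenzyme Q synthesis gene (CPM, log axis) in the 3 wild-type mice (blue) and the 3 Letmd1 KO mice (orange), with 1 symbol per mouse and a bar at the group mean. The KO mice lie below the wild-type mice for Pdss2, Coq4, Coq5, Coq6, Coq7, Coq9 and Coq10a, and among them for Pdss1, Coq2 and Coq3.

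Because the TMM factors were between 0.852 and 0.886 in wild-type and between 1.13 and 1.17 in KO libraries, the scaling moved every fold change by a like amount. With library size alone the median of all genes was 0.45 on the log2 scale, 10.5% of genes were lower and 45.4% were higher. On that scale Coq5, Coq6, Coq9 and Coq10a were lower, Coq4 and Coq7 did not pass, and Coq2 was higher (log2 fold change 0.42, adjusted p = 0.0158). After quantile normalization and limma, the normalization the study names, 23.7% of genes were lower and 20.9% were higher, and 7 of the 10 genes were lower, the same 6 and Pdss2. Set against the all-gene median, the median of the 10 was -0.84 with TMM, -0.84 with library size alone and -0.83 after quantile normalization. With TMM and with library size alone all 10 lay below the median of all genes. After quantile normalization 9 did, and Coq2 lay above it. Pdss1 (0.02, standard error 0.19) and Coq2 (0.0051, standard error 0.12) were within their standard errors of the all-gene median with TMM (0.03). TMM and library size alone differ by a like shift of every gene, so their likeness here does not count as a second result.

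In GRCm38 (GENCODE vM21 annotation, the mm10 build named in the submitters' processing notes) the genes lie on 7 autosomes. Promoter windows from RefSeq on GRCm38.p6, running from 250 bases before to 50 bases after a start site, matched 9 of the 10 genes with 11 windows, and Coq5 had no entry. Windows of genes that passed and of genes that did not were searched alike, and only some stretches of them are printed below. Each window was searched on both strands for short words bound by regulators of mitochondrial genes, namely CCGGAAG for GABP, GCGCATGCG for NRF1, TCAAGGTCA for ERR, AAGATGGCG for YY1 and TGATGNAA for ATF4/CHOP. The GABP word was in 8.86% of all 32851 windows and in those of Pdss1, Pdss2 and Coq6, of which Coq6 was lower in KO BAT. For YY1 the share was 1.4% of all windows, and Coq9 held the word. The NRF1 word (1.75% of all windows), the ERR word (0.42%) and the ATF4/CHOP word (3.97%) were in none of the 11 windows, which says only that these letters are not there. A word is a match of letters, not a binding site. The stretches of 30 bases that hold the words follow, on the plus strand, with the word in capitals, and positions are counted from 0 at the start site.
Pdss1, words at positions 25 and 39, chr2:22895542-22895571: tcgcgCTTCCGGtgcccagCTTCCGGctcc
Pdss2, word at position -118, chr10:43221356-43221385: tccatctctcgcCTTCCGGtcatcactgag
Coq6, word at position 19, chr12:84361975-84362004: ttgacgactgccCCGGAAGcactttccagg
Coq9, word at position 6, chr8:94838408-94838437: tgcccacttccAAGATGGCGgcgacagcag
The first 3 carry CCGGAAG or its reverse complement CTTCCGG, and Pdss1 carries 2 copies of it within 30 bases. Upstream sequence of 200 bases outside any annotated exon is shown for 3 of the genes that were lower in KO BAT and whose windows held no word, each read 5′ to 3′ on the strand of the gene and ending just before the start site. The start site of the Coq10a window shown (chr10:128370037) lies outside the GENCODE span of that gene, and that of its other window (128368980) lies within it. The start sites of the Coq6 window (chr12:84361968) and the Coq9 window (chr8:94838413) lie inside the GENCODE genes, which begin at 84361657 and 94838321. Their word positions are counted from the RefSeq start and not from the GENCODE start. In 8 of the 11 windows the bases after the start site were found in a GENCODE transcript of the gene.
Coq4, plus strand, chr2:29787293-29787492: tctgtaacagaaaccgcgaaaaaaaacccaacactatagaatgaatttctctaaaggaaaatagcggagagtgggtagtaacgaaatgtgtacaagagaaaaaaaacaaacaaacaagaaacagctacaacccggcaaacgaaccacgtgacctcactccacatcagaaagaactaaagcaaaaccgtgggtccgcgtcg
Coq7, minus strand, chr7:118533357-118533556: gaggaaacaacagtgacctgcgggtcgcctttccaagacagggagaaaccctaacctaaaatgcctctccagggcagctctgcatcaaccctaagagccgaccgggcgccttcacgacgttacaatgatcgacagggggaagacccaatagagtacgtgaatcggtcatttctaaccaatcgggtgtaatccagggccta
Coq10a, minus strand, the farther upstream of its windows, chr10:128370038-128370237: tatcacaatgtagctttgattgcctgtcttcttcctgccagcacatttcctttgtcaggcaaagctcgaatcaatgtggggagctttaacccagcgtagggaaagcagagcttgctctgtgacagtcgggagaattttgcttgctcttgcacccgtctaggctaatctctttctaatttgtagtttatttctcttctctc

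The synthesis of the tail was measured by Pdss1 and Pdss2, whose products form 1 enzyme of unlike subunits. Pdss1 (chr2:22895522-22940266, plus strand) was at 9.81, 12.8 and 12.5 CPM in the wild-type mice, and 13.1, 10.5 and 12.1 CPM in the KO mice. The groups overlapped, and the difference was 0.02 on the log2 scale (standard error 0.19, 95% interval -0.41 to 0.46, adjusted p = 0.930). Pdss2 (chr10:43221486-43464882, plus strand) was the lowest of the 10 genes in both groups, with 8 to 29 counts per mouse. Its level was 2.70, 2.86 and 2.22 CPM in the wild-type mice, and 1.32, 1.06 and 1.71 CPM in the KO mice. Every KO mouse was below every wild-type mouse, but the difference of -0.89 (standard error 0.38, 95% interval -1.74 to -0.05) did not pass (adjusted p = 0.0790). After quantile normalization it did (log2 fold change -1.51, adjusted p = 0.00793). The last exon of Pdss1 overlaps that of Abi1, on the opposite strand, by 194 bases. Whether reads were counted by strand is not given in the sources used here, so those of Pdss1 and Abi1 in that stretch cannot be told apart. Abi1 was at 44.2 CPM in wild-type and 55.2 CPM in KO BAT (log2 fold change 0.32, adjusted p = 0.0628).

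COQ2 attaches the tail to the ring, the step that commits it to coenzyme Q. The level of Coq2 (chr5:100654723-100675140, minus strand) was 43.3, 45.6 and 44.5 CPM in the wild-type mice, and 40.2, 45.5 and 48.0 CPM in the KO mice. The KO mice spread around the wild-type values, and the interval of the difference, -0.26 to 0.27 on the log2 scale, leaves room for a change of up to about that size in either direction (log2 fold change 0.0051, standard error 0.12, adjusted p = 0.975). The last 500 bases of Coq2 match the pseudogene Gm6728 over 344 bases at 97.4% identity, and the authors counted multiple alignments, so part of its count is uncertain.

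The ring is modified by COQ6 and COQ7, which add hydroxyl groups, and by COQ3 and COQ5, which add methyl groups. Coq6 (chr12:84361657-84373796, plus strand), a flavoprotein monooxygenase, was at 101, 88.3 and 98.6 CPM in the wild-type mice, and 32.2, 34.5 and 48.6 CPM in the KO mice. All 3 KO mice were below the wild-type mice, with KO 3 the highest of them (log2 fold change -1.31, standard error 0.16, adjusted p = 0.000214). Coq5 (chr5:115279666-115296972, plus strand), the C-methyltransferase, was the highest of the 10 genes in wild-type BAT. It was at 264, 287 and 306 CPM there, and at 140, 98.6 and 125 CPM in the KO mice. The groups did not overlap, and the log2 fold change was -1.24 (standard error 0.14, adjusted p = 0.000128). Coq3 (chr4:21879673-21912162, plus strand), the O-methyltransferase, was at 56.5, 59.9 and 50.6 CPM in the wild-type mice, and 45.4, 48.3 and 53.1 CPM in the KO mice. KO 3 lay within the wild-type range, and the difference of -0.18 (standard error 0.12, 95% interval -0.46 to 0.09) did not pass (adjusted p = 0.241); with library size alone it was 0.23. The intervals of the methyltransferases Coq5 (-1.55 to -0.92) and Coq3 did not overlap, although a difference between the genes was not itself tested in the fit.

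COQ7, a di-iron hydroxylase, makes the last hydroxylation and is held in the complex by its partner COQ9, a protein that binds lipid. Coq7 (chr7:118509659-118533356, minus strand) was at 239, 231 and 227 CPM in the wild-type mice, and 140, 115 and 167 CPM in the KO mice. No KO mouse reached the wild-type range, and Coq7 fell by 0.72 on the log2 scale (standard error 0.14, adjusted p = 0.00245). With library size alone the log2 fold change was -0.30 and did not pass (adjusted p = 0.105). Coq9 (chr8:94838321-94854895, plus strand) was at 268, 283 and 288 CPM in the wild-type mice, and 117, 115 and 140 CPM in the KO mice. The groups were far apart for their spread, and Coq9 had the smallest standard error and the lowest adjusted p of the 10 genes (log2 fold change -1.17, standard error 0.11, adjusted p = 4.98e-05). Its start overlaps that of Ciapin1 on the opposite strand by 38 exonic bases, away from the 3′ end that QuantSeq reads.

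COQ4 belongs to the same complex and is needed for it to form. Coq4 (chr2:29787493-29797935, plus strand) was at 20.3, 17.2 and 19.9 CPM in the wild-type mice, and 10.8, 13.1 and 12.5 CPM in the KO mice. Its groups did not overlap, but its difference was the smallest among the genes that passed (log2 fold change -0.66, standard error 0.16, adjusted p = 0.00913). With library size alone it was -0.24 (adjusted p = 0.233), and with the level of muscle markers as a covariate -0.51 (adjusted p = 0.157), and neither passed. Trub2, whose start overlaps that of Coq4 on the opposite strand by 921 exonic bases, was also lower in KO BAT (log2 fold change -0.41, adjusted p = 0.0307). The overlap lies at the starts of both genes, while QuantSeq reads the 3′ end.

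COQ10A binds coenzyme Q after it is made and is needed for its use in respiration rather than for a step of its synthesis. Coq10a (chr10:128363100-128368997, minus strand) was at 134, 115 and 101 CPM in the wild-type mice, and 40.2, 28.5 and 44.8 CPM in the KO mice. The groups lay far apart, and the log2 fold change of -1.62 (standard error 0.18, 95% interval -2.02 to -1.22) was the most negative of the 10 (adjusted p = 0.000103). Its paralog Coq10b was at 60.5, 64.2 and 22.8 CPM in the wild-type mice, and 19.9, 20.6 and 18.8 CPM in the KO mice. Wild type 3 was close to the KO mice, so the wild-type spread was wide (49.2 ± 22.9 CPM, SD, n = 3). Coq10b passed the test (log2 fold change -1.32, adjusted p = 0.00888), but did not without wild type 2 and KO 3 (-1.06, adjusted p = 0.0891). The last 500 bases of Coq10b match the pseudogene Gm4899 over 347 bases at 96.8% identity, so part of its count is uncertain.

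**Figure D2:**
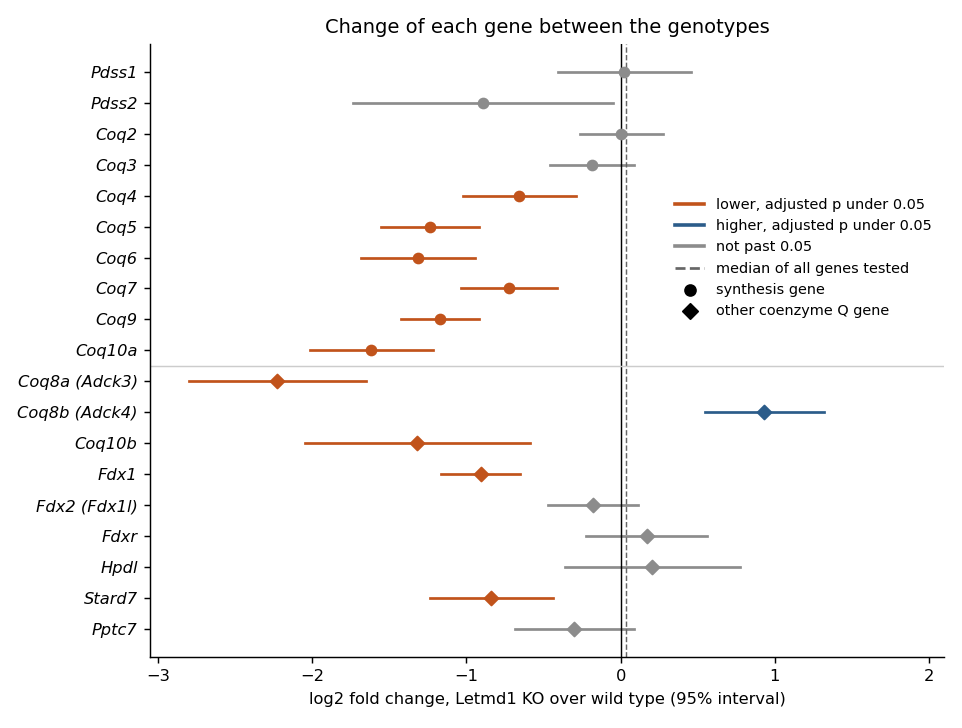
Log2 fold change of Letmd1 KO over wild type, with its 95% interval, for the 10 coenzyme Q synthesis genes (circles) and 9 other coenzyme Q genes (diamonds). Orange marks genes lower and blue genes higher at an adjusted p under 0.05, grey genes that did not pass, and the dashed line the median of all genes (0.03); Coq8b is the sole gene in blue, at 0.93.

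No overlap between the mice of the 2 genotypes, with the KO mice below, was seen for 7 of the 10 genes and for 27.2% of all genes tested, and the KO mice were above for none of the 10 and for 30.1% of all genes. Within the KO group, KO 3 was the highest mouse for 7 of the 10 genes and KO 2 the lowest for 6. The order of their summed level, KO 3 above KO 1 above KO 2, was also that of the summed brown adipocyte markers (3138, 2511 and 3974 CPM in KO 1 to 3, against 15080 to 16681 CPM in the wild-type mice) and the reverse of the order of the macrophage markers (1567, 2306 and 1348 CPM, against 171 to 242 CPM). The general adipocyte markers also ran in the reverse order (14034, 18004 and 12358 CPM in KO 1 to 3, against 35702 to 40615 CPM in the wild-type mice). So did the fibroblast markers (6536, 10160 and 5852 CPM). The skeletal muscle markers ran in the same order as the coenzyme Q genes (497, 386 and 1409 CPM), and the endothelial markers in neither (563, 450 and 524 CPM). The order therefore does not single out brown adipocytes. Of the 9 brown adipocyte markers 8 were lower, of 6 general adipocyte markers all 6 were lower, and all 12 macrophage and all 6 fibroblast markers were higher. Of the 15 muscle markers 3 were higher and 12 did not pass (14 were higher without wild type 2), and of 9 endothelial markers 4 were lower and 1 higher. The fibroblast sums were 2143 to 2843 CPM in wild-type and 5852 to 10160 CPM in KO BAT, and the endothelial sums 668 to 746 and 450 to 563 CPM. No marker of these lists was at 0 in all wild-type mice, but some were at the floor there. The macrophage marker Trem2 had counts of 1, 0 and 0 in wild type 1 to 3. The muscle markers Ckm, Myh2, Myh4, Tnnt3, Pvalb and Mybpc2 had counts of 0 in wild type 1 and wild type 3. The part of the cell makeup in the coenzyme Q values was not tested, and in whole tissue fewer brown adipocytes and less of a transcript per cell cannot be told apart. Without wild type 2 and KO 3 the same 6 genes passed, with log2 fold changes between -1.78 for Coq10a and -0.77 for Coq4. In that fit 1912 of 12898 genes were lower, and muscle was not evened out between the genotypes. With muscle level as a covariate 5 of the 10 genes were lower and Coq4 did not pass, beside 1771 of 12995 genes lower.

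Among themselves the 10 genes spanned 110-fold in level in wild-type BAT and 103-fold in KO BAT. In wild-type BAT the order was Coq5, Coq9, Coq7, Coq10a, Coq6, Coq3, Coq2, Coq4, Pdss1 and Pdss2. Neighbours in it overlapped between mice for Coq5 and Coq9 and for Coq10a and Coq6, and the others did not. By the same comparison of ranges across mice, Coq7, Coq9 and Coq5 overlapped at the top in KO BAT. Below them Coq3, Coq2, Coq6 and Coq10a overlapped neighbour by neighbour, as did Coq4 and Pdss1, and Pdss2 was lowest. The KO mice spread more (SD of the summed level 71.6 CPM, against 5.69 CPM in wild-type BAT), which widens these ranges. Within each KO mouse Coq3 was still above Coq2. Coq10a and Coq6 were above Coq3 and Coq2 in every wild-type mouse. In every KO mouse Coq3 was above both Coq10a and Coq6, while the order of Coq2 against them differed between mice. As a share of the counts of all 10 genes, Coq2 was 3.89% ± 0.0929 (SD, n = 3) in wild-type and 7.74% ± 1.06 in KO BAT, and Coq10a was 10.2% ± 1.47 and 6.46% ± 0.759. Coq5, Coq7 and Coq9 together held 69.7% ± 1.85 (SD, n = 3) and 66.3% ± 2.03.

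Ratios of counts within a mouse do not depend on how libraries are scaled, and 6 pairs were formed with the values above known, so they are given as a description with no test. Coq7 over Coq9, the hydroxylase over its partner, was 0.893, 0.816 and 0.789 in wild-type BAT against 1.19, 1.003 and 1.20 in KO BAT. Thus Coq9 exceeded Coq7 in every wild-type mouse and in no KO mouse, although in KO 2 the counts were nearly equal (869 for Coq7 and 866 for Coq9). Pdss1 over Pdss2, the subunits of the tail synthase, was 3.64, 4.48 and 5.65 against 9.92, 9.88 and 7.10, and rests on as few as 8 counts of Pdss2. Coq5 over Coq3, the methyltransferases, was 4.67, 4.79 and 6.04 against 3.08, 2.04 and 2.35. Coq6 over Coq7, the hydroxylases, was 0.424, 0.382 and 0.434 against 0.230, 0.300 and 0.291. In all of these pairs the mice of the genotypes did not overlap, while Coq10a over Coq10b overlapped (1.79 to 4.44 against 1.38 to 2.38). The share of all gene pairs that separate in this way was not computed. Among single genes, 27.2% of all tested had no overlap with the KO mice below and 30.1% with them above. The separation is therefore not read as particular to these pairs.

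**Figure D3:**
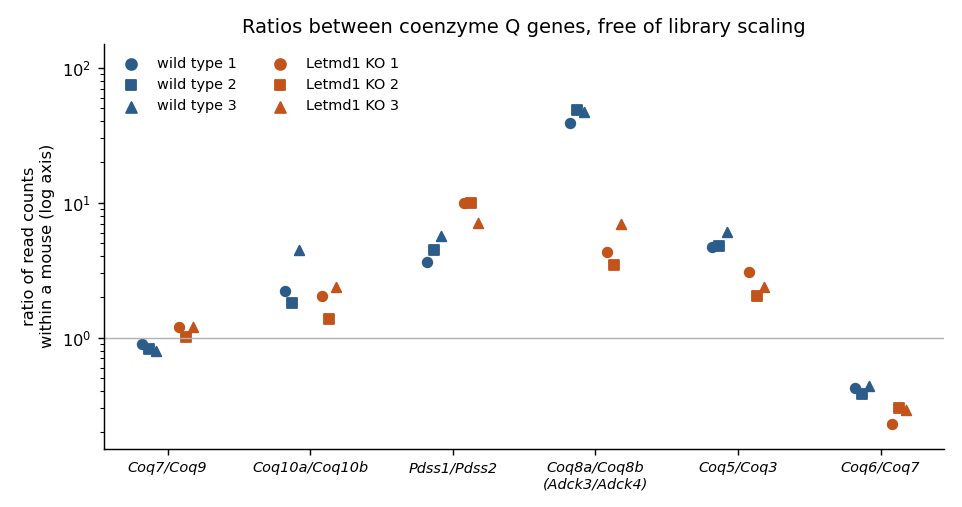
Ratio of read counts of a pair of coenzyme Q genes within each mouse (log axis), for the 3 wild-type mice (blue) and the 3 Letmd1 KO mice (orange), 1 symbol per mouse and a grey line at a ratio of 1. The Coq8a over Coq8b ratio is 38.8 to 48.4 in the wild-type mice and 3.48 to 6.95 in the KO mice, the widest gap of the 6 pairs.

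Of 9 further coenzyme Q genes, 4 were lower, 1 was higher and 4 did not pass, with a median log2 fold change of -0.30 (0.12 with library size alone, where 3 were lower and 2 higher). Over all genes 22.3% were lower and 23.7% higher with TMM, and 10.5% and 45.4% with library size alone. COQ8A and COQ8B are related kinase-like ATPases that maintain the synthesis complex, and their genes moved in opposite directions. Coq8a, listed as Adck3 (chr1:180165238-180199602, minus strand), was at 765, 631 and 848 CPM in the wild-type mice, and 145, 106 and 227 CPM in the KO mice. Its wild-type level was above that of any of the 10 synthesis genes, and its log2 fold change was -2.23 (standard error 0.26, adjusted p = 0.000134). Coq8b, listed as Adck4 (chr7:27233023-27257950, plus strand), was at 19.7, 13.04 and 18.1 CPM in the wild-type mice, and 33.7, 30.6 and 32.7 CPM in the KO mice. The KO mice were all above the wild-type mice (log2 fold change 0.93, standard error 0.17, adjusted p = 0.00192). Exons of Coq8b overlap those of the antisense gene Gm15567 by 455 bases, with a match of 101 bases in the last 500 bases of a Coq8b transcript, and those of Gm44641 on the same strand by 153 bases, so part of its count is uncertain. Both calls held with library size alone, after quantile normalization and without wild type 2 and KO 3. The ratio of Coq8a to Coq8b counts was 38.8, 48.4 and 46.8 in wild-type BAT against 4.30, 3.48 and 6.95 in KO BAT. The end of Coq8a overlaps that of Cdc42bpa on the opposite strand by 366 bases, and Cdc42bpa was lower too (111 CPM in wild-type and 47.0 CPM in KO BAT, log2 fold change -1.24, adjusted p = 0.000482), so without strand their reads there cannot be told apart.

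Electrons for the hydroxylation by COQ6 come from ferredoxin, which is charged by ferredoxin reductase. Fdx1 was lower (238 ± 20.1 and 127 ± 11.2 CPM, SD, n = 3 each, log2 fold change -0.91, adjusted p = 0.000225). Fdx2, listed as Fdx1l, was at 31.8 and 28.1 CPM (log2 fold change -0.18, adjusted p = 0.294), and the reductase Fdxr at 17.7 and 19.8 CPM (0.17, adjusted p = 0.464). Of the genes for movement and control of coenzyme Q, Stard7, a lipid carrier, was lower (284 ± 34.4 and 159 ± 37.0 CPM, SD, n = 3 each, log2 fold change -0.84, adjusted p = 0.00412). With library size alone it was -0.42 and did not pass (adjusted p = 0.0813). Pptc7, a mitochondrial phosphatase, was at 321 and 261 CPM (log2 fold change -0.30, adjusted p = 0.181), and Hpdl, an enzyme that supplies the ring, at 5.56 and 6.38 CPM (0.21, adjusted p = 0.537).

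Of 9 genes of the mevalonate pathway, which supplies the isoprene units, 3 were lower and none higher, a share near the 22.3% of all genes called lower, with a median log2 fold change of -0.45 (-0.03 with library size alone, where 2 were lower and Ggps1 was higher). With muscle level as a covariate, and without wild type 2 and KO 3, 2 of the 9 were lower. The 3 lower with TMM were Acat2, which joins acetyl-CoA units (426 and 122 CPM, log2 fold change -1.80), Pmvk and Mvk. Mvk, the kinase of mevalonate, was at 21.7 and 14.0 CPM (-0.63). Pmvk, the kinase of phosphomevalonate, was at 89.8 and 29.8 CPM (-1.60). Among those that did not pass were Hmgcs1, Mvd, Idi1, Fdps and Ggps1. This pathway also feeds the synthesis of sterols.

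On the side of use, a list of 10 genes held enzymes that pass electrons to coenzyme Q, with Etfa and Etfb, which deliver electrons to Etfdh. Complex I and succinate dehydrogenase were not in this list. Of the 10 genes, 8 were lower and 1 was higher, with a median log2 fold change of -0.94. With library size alone 6 were lower and 1 higher, and after quantile normalization 7 were lower and none higher. Over all genes, the shares lower with TMM, library size alone and quantile normalization were 22.3%, 10.5% and 23.7%. The shares higher were 23.7%, 45.4% and 20.9%. Gpd2, the glycerol 3-phosphate dehydrogenase of the inner membrane, was at 3094, 3241 and 3520 CPM in the wild-type mice, and 501, 448 and 540 CPM in the KO mice. Among the enzymes of this list it changed most (log2 fold change -2.73, standard error 0.14, adjusted p = 3.09e-06). Etfdh, which passes electrons of fatty acid oxidation to coenzyme Q, was at 456 ± 33.5 CPM and 142 ± 8.42 CPM (SD, n = 3 each, log2 fold change -1.68), and Etfa and Etfb, which deliver those electrons to it, were at -1.06 and -1.04. Chdh, Aifm2, Sqor and Dhodh, which draw on choline, NAD(P)H, sulfide and dihydroorotate, were at -1.18, -0.84, -0.55 and -0.47. Nqo1, a cytosolic quinone reductase, was higher, but at the edge of detection (0.429 CPM in wild-type and 2.11 CPM in KO BAT, adjusted p = 0.0333), and it did not pass after quantile normalization or without wild type 2 and KO 3. Prodh, the proline dehydrogenase, did not pass (log2 fold change -0.29, adjusted p = 0.330).

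Complex III, which oxidises coenzyme Q, was lower in all 9 of its nuclear-encoded subunits, with log2 fold changes between -1.89 for Uqcrh and -1.04 for Cyc1 and a median of -1.40. The 4 synthesis genes that did not pass, with log2 fold changes between -0.89 and 0.02, lay above every complex III subunit. Coq10a, Coq6, Coq5 and Coq9 were within the range of the subunits, and Coq7 and Coq4 were above it. After quantile normalization 8 of the subunits were lower with a median of -0.65, and on that scale Coq10a, Pdss2, Coq6, Coq5, Coq9 and Coq4 were below that median, so the order of the lists depends on the scaling. All these comparisons share the same mice, so the lists are set side by side as values and were not tested against each other.

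**Figure D4:**
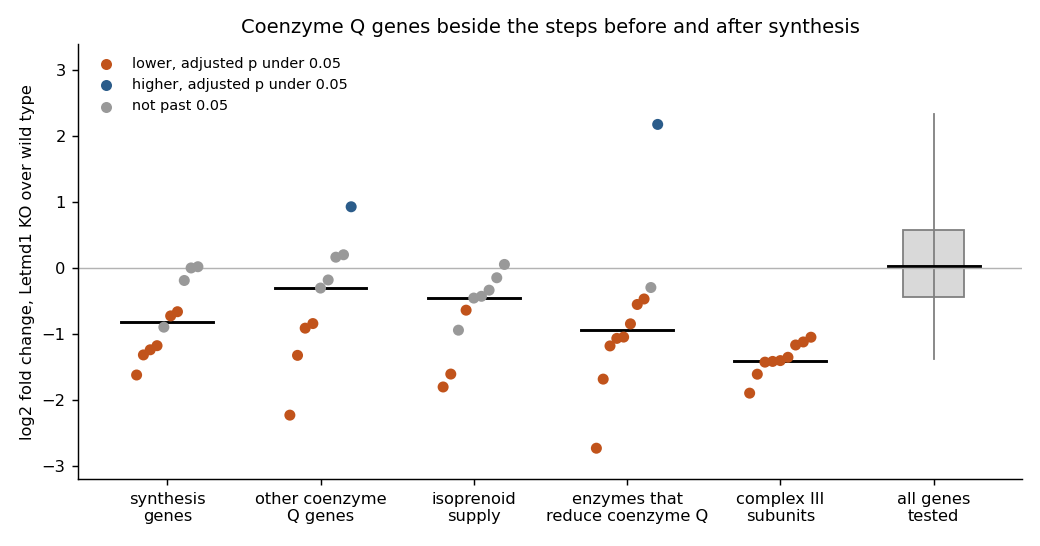
Log2 fold change of Letmd1 KO over wild type for each gene (points) of the synthesis genes, other coenzyme Q genes, isoprenoid supply, enzymes that reduce coenzyme Q (a list that also holds Etfa and Etfb) and complex III subunits, with a bar at each list's median (-0.81, -0.30, -0.45, -0.94 and -1.40). The box on the right covers the 25th to 75th and the line the 5th to 95th percentile of all genes tested (-0.44 to 0.58 and -1.37 to 2.34), with a bar at their median.

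The genes whose profile over the 6 mice lay nearest to the mean profile of the 10 synthesis genes were Iscu, Fastk, Pgam1, Tbrg4 and Tomm5. Likeness was measured as the root mean square difference of centred log2 CPM over the 6 mice, which was 0.03 for Iscu and 0.04 for the other 4. Iscu is the scaffold for iron-sulfur clusters, Fastk and Tbrg4 belong to a family that acts on mitochondrial RNA, Pgam1 is a glycolytic mutase and Tomm5 is a subunit of the outer membrane import pore. Their log2 fold changes were -0.80, -0.81, -0.83, -0.72 and -0.69, and the profile is dominated by the step between the genotypes, which many other genes share.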

How the data were processed

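BAT transcripts were measured in 3 wild-type and 3 Letmd1 KO mice. The authors made QuantSeq libraries from 500 ng of total RNA, sequenced single-end reads of 75 bases, aligned them with Bowtie2, counted unique and multiple alignments with bedtools and deposited raw read counts per gene symbol for each mouse. The submitters' processing notes name mm10; the annotation, the versions and the use of strand are not given in the sources used here. Bowtie2 does not split reads across introns, and counting multiple alignments adds reads from near-identical copies. The deposited counts are not normalized, although the paper names a quantile normalization.

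Samples were grouped by the genotype in their labels. Titles number the mice, and p-values measure the spread between these mice. Mice of 1 genotype differed beyond sampling noise in each pair (chi-square 11.5 to 34.0 for each degree of freedom), so all were kept as separate. Genes were tested in R 4.3.3 with edgeR 4.0.16 (TMM, filterByExpr with a minimum count of 10 and total of 15, quasi-likelihood test, Benjamini-Hochberg adjustment, threshold 0.05), which kept 12995 of 23282 rows, and 5588 rows had no counts. Alternatives used limma 3.58.1 and DESeq2 1.42.0. Standard errors are the log2 fold change over the root of the F statistic. The steps were tested on simulated counts. Near-identical 3′ ends were sought with blastn 2.17.0 in the last 500 bases (at least 95% identity over 75 bases).

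The 10 genes and all lists were chosen with earlier results of these data known. Genes named are the 10, Letmd1, Ucp1, the genes of the lists, genes that overlap them and the 5 nearest profiles. Alternatives were other scalings, DESeq2, the low-count filter dropped or raised to a mean of 50, a replicate block, muscle level as a covariate, leaving out the Rn45s row, other thresholds, and leaving out mice. Same-numbered mice did not deviate together (correlations of deviations 0.08, -0.11 and -0.09), so the numbers were not taken as pairs. Exact tests of 3 mice against 3 cannot go below a p of 0.1. Protein levels and coenzyme Q itself were not analysed here. A member of the isoprenoid list is counted with its list and not reported here by itself.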

Additional observations from a re-analysis of the deposited data

How the results depend on the processing

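Coq5, Coq6, Coq9 and Coq10a were lower at an adjusted p under 0.05 under all 16 alternatives, and over the 10 genes 140 results kept their direction and side of the threshold, 14 turned direction, 3 lost the call and 2 gained it. The number of the 10 genes that were lower was 6 in most fits, 4 with library size alone, 7 after quantile normalization and 5 with muscle level as a covariate, and 1 was higher with library size alone. Their median log2 fold change was -0.39 with library size alone, -0.67 at a mean of at least 50 counts (9 genes, without Pdss2), -1.01 with muscle level as a covariate, -0.96 without wild type 2 and KO 3, and -0.99 to -0.74 when each mouse was left out. Over all genes 5978 passed, 5851 with DESeq2, 3598 with muscle level as a covariate (1771 lower, 1827 higher), 3889 without wild type 2 and KO 3 (1912 lower, 1977 higher), 4842 to 5868 when each mouse was left out, and 1368 lower and 5899 higher with library size alone. With the replicate number as a block 5599 genes passed and 6 of the 10 genes were lower; not every mouse correlated best with its own number. The genes that turned direction were all uncalled in TMM scaling. Coq2 was at -0.0090 with DESeq2 size factors, -0.0081 with DESeq2, -0.00017 without a filter, -0.068 with muscle level as a covariate, -0.048 without wild type 2 and KO 3, and -0.054 to 0.073 when each mouse was left out. Pdss1 was at -0.21 after quantile normalization, -0.13 with muscle level as a covariate and -0.10 to 0.10 when each mouse was left out. With library size alone Coq3 was at 0.23, Fdx2 (Fdx1l) at 0.24 and Pptc7 at 0.12, while Fdxr passed (0.59, adjusted p = 0.0219 from edgeR). After quantile normalization Hpdl was at -0.19 and Pptc7 at 0.0061, and Fdxr was at -0.036 with muscle level as a covariate. Without KO 3, Pptc7 passed (-0.48, adjusted p = 0.0428 from edgeR). Library size alone moved all genes by a like amount, while quantile normalization moved genes in both directions; the cause of the other shifts was not tested. Pdss2 had 8 to 29 counts per mouse, the fewest of the 10 genes, and the part of depth in its result was not tested.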
